A study of Mus musculus with 8 samples.

Results

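Transcripts that mark B cells, antigen-presenting cells and myeloid cells were followed in CD4+ T cells taken from BALB/c mice, as markers of the other cells that such a preparation could hold. The group held 34 genes of the 18193 with a probe set of single gene symbol: 9 B cell markers, 5 genes of the MHC class II pathway and 20 myeloid markers. Where a gene had several probe sets, the brightest on average was used. The 4 groups of 2 arrays each were control cells, cells with dorsomorphin, cells stimulated with antibodies against CD3 and CD28, and stimulated cells with dorsomorphin. All cells were cultured with or without the antibodies for 1 h, after which 4 µM dorsomorphin, or DMSO as solvent alone, was added for 6 h. Dorsomorphin blocks the type I BMP receptors (ALK2, ALK3 and ALK6) as well as the energy-sensing kinase AMPK. The sources used here do not give how the CD4+ T cells were separated, nor whether replicates came from separate mice or cultures. The p-values therefore reflect array-to-array spread alone, and that spread may be technical.

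B cells carry an antigen receptor that signals through the chains CD79A and CD79B. Dendritic cells, macrophages and B cells load peptides on MHC class II molecules and show them to CD4+ T cells, whereas mouse T cells make little class II themselves. Macrophages, monocytes, neutrophils and dendritic cells are distinguished by growth factor receptors, Fc receptors, integrins and granule proteins. Transcripts of such cells in a CD4+ T cell preparation can come from other cells that remain in it, and some of the listed genes, among them Cst3, Ctss and Lgals3, are also made by further cell types.

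Values are log2 signals, replicate 1 before replicate 2, and a log2 fold is the difference of 2 group means, with its SE from 1 linear model over all 8 arrays (limma, n = 2 per group). No detection calls were used, so a working floor of log2 5.22, the 40th percentile of all values, stands in for background. Of the 34 genes, 18 lay above it on all 8 arrays, 13 on 4 to 7, 2 on 2 or 3, and 1, Cr2, on fewer than 2. Cr2, the complement receptor gene of B cells, was therefore not tested, which left 33. No value of any listed gene was 0. The labelled cell type showed in its own genes: all 15 measured CD4 T cell genes lay above the floor on all 8 arrays, with log2 signals of 13.14 to 14.45 for Cd3d and 7.97 to 11.02 for Cd4. Arrays of 1 group correlated at 0.937 to 0.952 over 13983 genes, which are not independent replicates. Median signals per array ran from 45.4 to 74.5, the lowest on replicate 2 of the stimulated cells.

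Most markers had their highest mean in control cells. The control mean was the highest of the 4 group means for 28 of 33 tested markers, beside 36.6% of all tested genes, and it was the lowest for 0. Both control arrays lay above all 6 other arrays for 18 of the 33 (54.5%), against 21.6% of all tested genes. This separation held for 14 of 20 myeloid markers, 3 of 8 tested B cell markers and 1 of 5 MHC class II genes. It was not particular to the markers, since it held also for the CD4 T cell genes Cd3d, Cd3e, Cd3g, Cd247, Cd4, Thy1, Bcl11b and Lef1. For the other measured CD4 T cell genes, Cd2, Cd5, Cd6, Cd28, Lat, Zap70 and Trat1, it did not hold. Cd79a passed the filter through its 2 control arrays alone, so its place in these counts was fixed by the filter. Itgam was above the floor on 3 arrays, both control arrays among them. The dorsomorphin mean was the lowest for 17 markers, the stimulated mean for 8 and the mean with both treatments for 8. Over all tested genes these groups were the lowest for 30.7%, 37% and 12.7%. In bulk RNA, fewer cells of a type and less RNA per cell cannot be told apart.

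**Figure D1:**
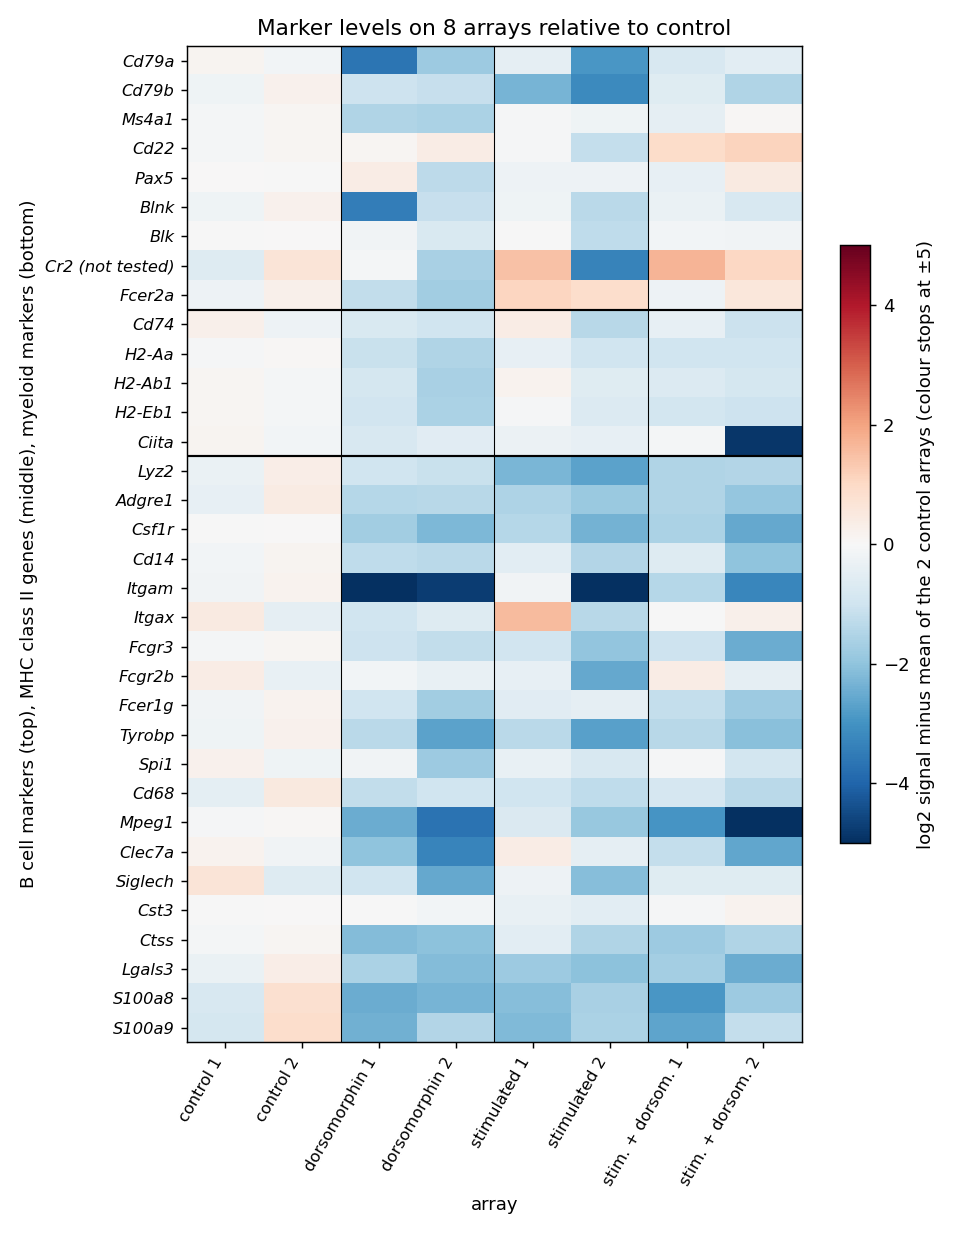
Log2 signal of each of the 34 markers (rows, in 3 blocks) on each of the 8 arrays (columns), minus the mean of the 2 control arrays; blue is lower than control, red higher, and the colour stops at a difference of 5. Most rows are blue in all 3 treated groups, whereas Cd22, Fcer2a, Itgax and Cr2 have red cells and Cst3 stays near white.

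Among B cell markers, the antigen receptor chain Cd79b fell with stimulation, and the surface protein gene Ms4a1, which encodes CD20, fell with dorsomorphin in unstimulated cells. Cd79b had log2 signals of 7.48 and 7.90 in control cells, 6.64 and 6.55 with dorsomorphin, 5.38 and 4.50 after stimulation, and 7.10 and 6.20 with both. The control arrays were the highest and the stimulated arrays the lowest, with no overlap between any of these pairs and the rest. Its log2 signal fell by 2.75 ± 0.43 with stimulation (adjusted p = 0.0138) and rose by 1.71 ± 0.43 when dorsomorphin was added to stimulated cells (adjusted p = 0.0406). The partner chain Cd79a had log2 signals of 5.70 and 5.45 in control cells, 1.93 and 3.78 with dorsomorphin, 5.13 and 2.66 after stimulation, and 4.77 and 5.05 with both. Its 6 treated arrays all lay below the floor, so control was at least 1.28-fold higher than each treated group, and no comparison of it passed.

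Ms4a1 had log2 signals of 6.62 and 6.84 in control cells, 5.24 and 5.16 with dorsomorphin, 6.66 and 6.52 after stimulation, and 6.29 and 6.81 with both. The dorsomorphin arrays stood alone at the floor and the other 6 overlapped. Its log2 signal fell by 1.53 ± 0.26 with dorsomorphin in unstimulated cells (adjusted p = 0.0223), and its log2 fold with stimulation was -0.14 ± 0.26. A dimmer probe set of the gene gave log2 folds of -0.91 and -0.36 in these comparisons. Cd22, an inhibitory receptor of B cells that binds sialic acid, had log2 signals of 5.69 and 5.90 in control cells, 5.90 and 6.18 with dorsomorphin, 5.74 and 4.62 after stimulation, and 6.70 and 6.92 with both. The arrays with both treatments were the highest of all. Dorsomorphin in stimulated cells raised it by 1.63 ± 0.40 log2 units (it rose, adjusted p = 0.0368), while its log2 fold in unstimulated cells was 0.25 ± 0.40. Its other probe set lay below the floor on all 8 arrays.

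The remaining B cell markers passed in no comparison. Pax5, the transcription factor that sets B cell identity, ranged from log2 4.33 to 6.05 over the 8 arrays, and the kinase gene Blk from 5.35 to 6.67. Blnk, an adaptor of the B cell receptor, ranged from 3.42 to 7.08, with a log2 fold of -2.29 ± 0.79 for dorsomorphin in unstimulated cells (adjusted p = 0.111). Fcer2a, the low-affinity IgE receptor gene, ranged from 3.96 to 6.77 and, unlike the other members, had its highest mean in stimulated cells. Both dorsomorphin arrays of Fcer2a lay below the floor, which makes control at least 1.38-fold higher (adjusted p = 0.0543). Cr2 ranged from 0.21 to 5.24, with 1 array above the floor.

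The MHC class II chains had log2 folds of -1.25 to -1.30 with dorsomorphin in unstimulated cells, and that of H2-Aa passed the test. H2-Aa encodes the alpha chain and H2-Ab1 the beta chain of the class II molecule I-A, H2-Eb1 encodes the beta chain of I-E, Cd74 the invariant chain that escorts them, and Ciita the coactivator that switches these genes on. Class II promoters share an X box, bound by the RFX complex, and a Y box, bound by NF-Y. They are shown for the 2 class II chains with an entry in the RefSeq promoter table, since their log2 folds were alike, with 250 bases before and 50 after the gene's start, both from chromosome 17 of GRCm38.p6. That build is of C57BL/6J, so BALB/c bases may differ. Capitals mark GCAACT, the core of the X box in both sequences, and CTGATTGG, the Y box.
H2-Aa, chr17:34287774-34288073, minus strand: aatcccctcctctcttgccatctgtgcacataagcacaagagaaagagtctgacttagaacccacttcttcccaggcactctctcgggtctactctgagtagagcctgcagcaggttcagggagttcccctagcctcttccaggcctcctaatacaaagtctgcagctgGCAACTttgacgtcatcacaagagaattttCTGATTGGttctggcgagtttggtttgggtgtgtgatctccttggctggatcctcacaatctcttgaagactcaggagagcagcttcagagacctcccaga
H2-Eb1, chr17:34305617-34305916, plus strand: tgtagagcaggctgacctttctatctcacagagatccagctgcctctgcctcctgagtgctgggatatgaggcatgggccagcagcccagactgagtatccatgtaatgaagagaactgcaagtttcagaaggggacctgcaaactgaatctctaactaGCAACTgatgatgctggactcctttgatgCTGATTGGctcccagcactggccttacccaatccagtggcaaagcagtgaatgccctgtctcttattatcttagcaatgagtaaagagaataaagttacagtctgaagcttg

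The capitals are separated by 24 bases in H2-Aa and 23 in H2-Eb1. Searched on both strands, CTGATTGG was in 4.1% of 32851 promoter windows, GCAACT in 10.9% and both in 0.466%. Windows matched 23 of the 34 markers. The strings are those marked in H2-Aa and H2-Eb1, so that these 2 held both was given by the choice of strings. No other matched marker held both. A match describes these letters and is no evidence of binding.

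H2-Aa had log2 signals of 10.54 and 10.64 in control cells, 9.48 and 9.09 with dorsomorphin, 10.20 and 9.60 after stimulation, and 9.60 and 9.60 with both. Control arrays were above all others. The gene fell by 1.30 ± 0.28 log2 units with dorsomorphin in unstimulated cells (adjusted p = 0.0390), and 2 further bright probe sets gave log2 folds of -1.29 and -1.44. Cross-hybridisation is possible, since the probe set used is of a type that can match other sequences. In the same comparison H2-Ab1 had a log2 fold of -1.25 ± 0.37 (adjusted p = 0.0795) and H2-Eb1 of -1.28 ± 0.33 (adjusted p = 0.0554), and neither passed. Cd74 had log2 signals of 10.004 and 9.497 in control cells, 8.997 and 8.74 with dorsomorphin, 10.14 and 8.37 after stimulation, and 9.35 and 8.67 with both. Its stimulated arrays differed more from each other than any of its group means, and no comparison of it passed. Ciita had log2 signals of 6.06 and 5.77 in control cells, 5.10 and 5.34 with dorsomorphin, 5.64 and 5.52 after stimulation, and 5.81 and 1.07 with both. The last array stood far below the rest, the log2 fold for dorsomorphin in stimulated cells was -2.14 ± 1.40 (adjusted p = 0.330), and a dimmer probe set of Ciita gave 1.09.

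Genes for parts of the RFX complex were measured in a list of other antigen presentation genes. Rfx5 had log2 signals of 9.11 and 8.93 in control cells, 6.23 and 6.22 with dorsomorphin, 9.46 and 9.49 after stimulation, and 6.28 and 6.71 with both. All 4 dorsomorphin arrays were below all 4 others. Rfx5 fell by 2.79 ± 0.23 log2 units with dorsomorphin in unstimulated cells (adjusted p = 0.00975) and by 2.98 ± 0.23 in stimulated cells (adjusted p = 0.00576). Rfxank fell by 2.24 ± 0.30 with dorsomorphin in unstimulated cells (adjusted p = 0.0141) and by 1.90 ± 0.30 with stimulation (adjusted p = 0.0137), and Rfxap passed in no comparison. Whether these changes bear on the class II genes was not tested.

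Among macrophage and monocyte markers, Lyz2, Adgre1 and Csf1r fell with stimulation. Lyz2, which encodes lysozyme, had log2 signals of 10.06 and 10.74 in control cells, 9.40 and 9.30 with dorsomorphin, 8.11 and 7.73 after stimulation, and 8.91 and 8.95 with both. The 4 groups did not overlap, with control highest and stimulated lowest. Lyz2 fell by 2.48 ± 0.30 log2 units with stimulation (adjusted p = 0.00950), a 5.597-fold difference, and by 1.47 ± 0.30 with both treatments against control (adjusted p = 0.0442). Its log2 fold for dorsomorphin in unstimulated cells was -1.05 ± 0.30 (adjusted p = 0.0719). In stimulated cells the log2 fold for dorsomorphin was 1.01 ± 0.30 (adjusted p = 0.0610).

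Adgre1, the gene of the macrophage surface protein F4/80, had log2 signals of 7.60 and 8.39 in control cells, 6.57 and 6.62 with dorsomorphin, 6.46 and 6.14 after stimulation, and 6.47 and 6.08 with both. The 6 treated arrays lay within 0.54 log2 units of each other, below both control arrays. It fell by 1.40 ± 0.33 log2 units with dorsomorphin (adjusted p = 0.0474), by 1.69 ± 0.33 with stimulation (adjusted p = 0.0216) and by 1.72 ± 0.33 with both (adjusted p = 0.0412). Csf1r, the receptor gene for the macrophage growth factor CSF1, had log2 signals of 9.21 and 9.23 in control cells, 7.48 and 6.96 with dorsomorphin, 7.81 and 6.85 after stimulation, and 7.64 and 6.67 with both. The treated groups overlapped each other and none reached control. Csf1r fell by 2.005 ± 0.47 with dorsomorphin (adjusted p = 0.0453) and by 1.90 ± 0.47 with stimulation (adjusted p = 0.0368). Probe sets of Csf1r disagreed in size: with stimulation they gave log2 folds of -1.90, -2.16 and -0.27.

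**Figure D2:**
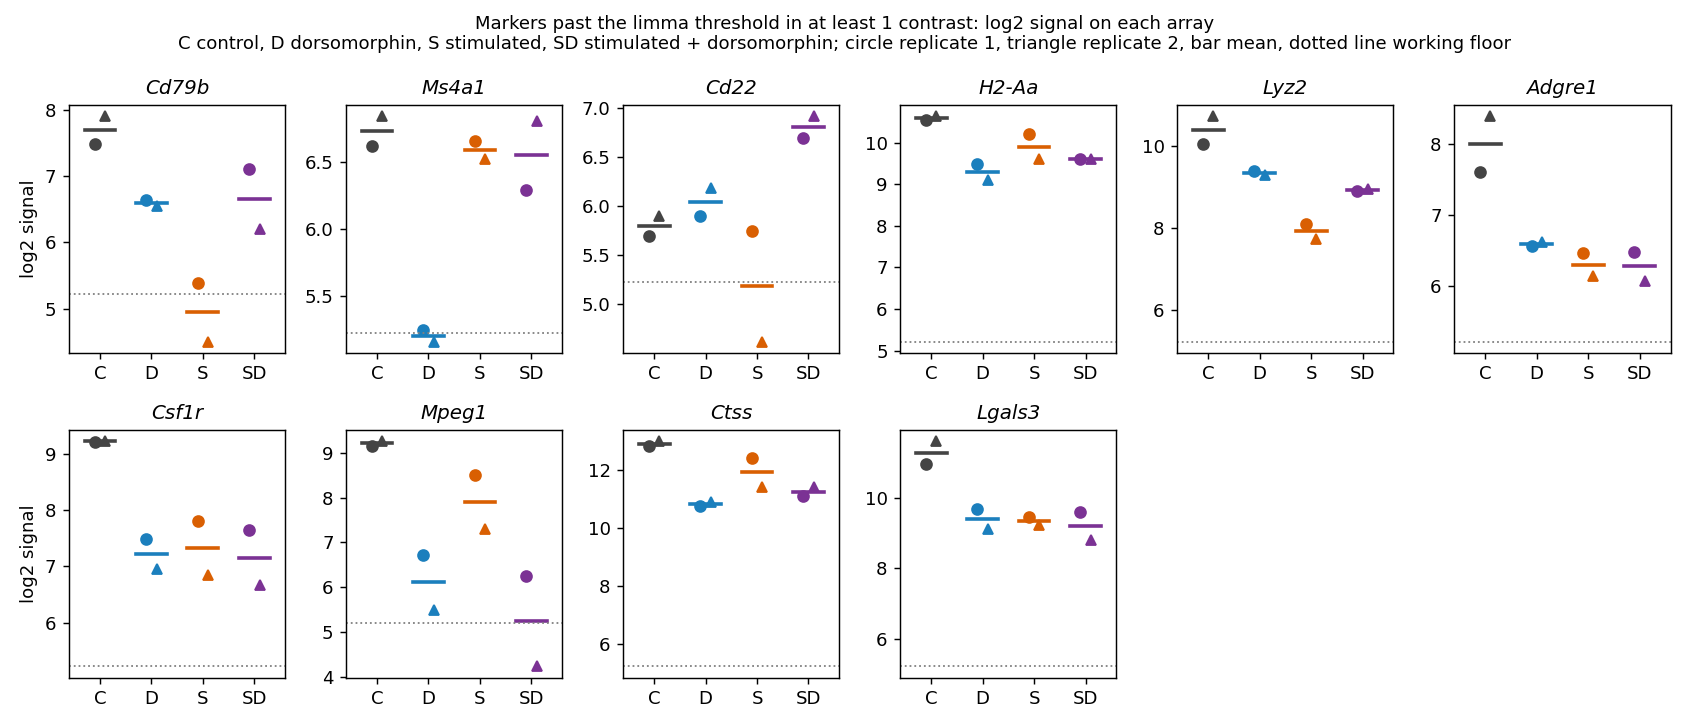
Log2 signal (vertical axes, separate scale per gene) of the 10 markers that passed limma's threshold in at least 1 comparison, on each array of the 4 groups; bars are means of 2 arrays and the dotted line is the working floor of 5.22. Control (C) is the highest group in 9 of the 10 panels, the exception being Cd22. Lyz2, Cd79b and Cd22 are lowest in stimulated cells (S).

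Mpeg1 and Clec7a, genes of phagocytes and dendritic cells, were lowest on the arrays with dorsomorphin. Mpeg1, which encodes the pore-forming protein perforin-2 of macrophages, had log2 signals of 9.15 and 9.26 in control cells, 6.72 and 5.504 with dorsomorphin, 8.49 and 7.31 after stimulation, and 6.25 and 4.24 with both. Control arrays were the highest and the 4 dorsomorphin arrays the lowest. Mpeg1 fell by 3.96 ± 0.79 log2 units with both treatments against control (adjusted p = 0.0429), and its log2 folds for dorsomorphin of -3.09 ± 0.79 in unstimulated and -2.65 ± 0.79 in stimulated cells did not pass (adjusted p = 0.0555 and 0.0628). Clec7a, the gene of the fungal glucan receptor dectin-1, was alike in having log2 folds for dorsomorphin of -2.64 ± 0.65 and -1.86 ± 0.65 (adjusted p = 0.0508 and 0.0936) beside -0.04 ± 0.65 for stimulation. Siglech, a marker of plasmacytoid dendritic cells, ranged from log2 4.47 to 7.67 and passed in no comparison.

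Itgam and Itgax encode the integrin chains CD11b of myeloid cells and CD11c of dendritic cells, and both lay near the floor. Itgam had log2 signals of 5.36 and 5.70 in control cells, 0.55 and 0.78 with dorsomorphin, 5.36 and 0.50 after stimulation, and 4.10 and 2.25 with both. Against the floor, control was at least 1.24-fold higher than the dorsomorphin group, and the fitted log2 fold of -4.87 is no measure of size. Itgax had log2 signals of 6.11 and 5.20 in control cells, 4.65 and 4.99 with dorsomorphin, 7.23 and 4.28 after stimulation, and 5.64 and 5.91 with both. The stimulated arrays spanned those of every other group, and both dorsomorphin arrays were below the floor.

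Fcer1g and Tyrobp encode adaptor chains through which Fc receptors and other myeloid and NK cell receptors signal. Fcer1g had log2 signals of 8.03 and 8.39 in control cells, 7.21 and 6.48 with dorsomorphin, 7.62 and 7.74 after stimulation, and 7.002 and 6.41 with both. Dorsomorphin arrays were below all others whether stimulated or not, yet the log2 folds of -1.37 ± 0.35 and -0.98 ± 0.35 did not pass (adjusted p = 0.0567 and 0.103). Tyrobp had log2 signals of 9.21 and 9.67 in control cells, 8.11 and 6.76 with dorsomorphin, 8.09 and 6.72 after stimulation, and 8.05 and 7.37 with both. All treated arrays lay below control, by -2.01 ± 0.64, -2.04 ± 0.64 and -1.73 ± 0.64 in log2 fold of the means, and no comparison passed (adjusted p = 0.0931, 0.0680 and 0.156). Of the Fc receptors themselves, the activating receptor gene Fcgr3 ranged from log2 5.20 to 7.76 with its highest arrays in control. The inhibitory receptor gene Fcgr2b ranged from 6.24 to 9.16, and its probe sets opposed each other for dorsomorphin in stimulated cells, at a log2 fold of 1.44 on the brightest, -0.24 on the next and -2.50 and -2.55 on dimmer ones.

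Ctss, which encodes the protease cathepsin S that trims the invariant chain, had log2 signals of 12.82 and 13.005 in control cells, 10.74 and 10.88 with dorsomorphin, 12.40 and 11.42 after stimulation, and 11.11 and 11.39 with both. It fell by 2.10 ± 0.36 log2 units with dorsomorphin in unstimulated cells (adjusted p = 0.0229), a 4.29-fold difference. Lgals3, the gene of the lectin galectin-3, had log2 signals of 10.94 and 11.61 in control cells, 9.68 and 9.12 with dorsomorphin, 9.45 and 9.22 after stimulation, and 9.59 and 8.80 with both. Every treated array of Lgals3 lay below both controls, while the treated groups overlapped. Lgals3 fell by 1.87 ± 0.40 log2 units with dorsomorphin (adjusted p = 0.0366), by 1.94 ± 0.40 with stimulation (adjusted p = 0.0234) and by 2.09 ± 0.40 with both (adjusted p = 0.0402). Cst3, which encodes the protease inhibitor cystatin C, stayed between log2 11.27 and 11.98 on all arrays, with a log2 fold for dorsomorphin of -0.09 ± 0.21.

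The neutrophil marker gene S100a8 had log2 signals of 10.98 and 12.56 in control cells, 9.31 and 9.45 with dorsomorphin, 9.66 and 10.14 after stimulation, and 8.87 and 9.97 with both. Control arrays were the highest but differed by 1.58 from each other, and the log2 folds against control of -2.39 ± 0.61 with dorsomorphin and -1.87 ± 0.61 with stimulation did not pass (adjusted p = 0.0556 and 0.0759). S100a9, which encodes the partner protein, differed by 1.78 between the control arrays, and its log2 folds in the same comparisons were -1.93 ± 0.77 and -1.89 ± 0.77. The other myeloid markers passed in no comparison: Cd14, the lipopolysaccharide co-receptor gene, ranged from log2 6.89 to 9.05, the lysosomal gene Cd68 from 6.62 to 8.47, and Spi1, the myeloid transcription factor gene PU.1, from 5.18 to 7.19.

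In the comparison of dorsomorphin with control in unstimulated cells, 6 of 33 tested markers fell (18.2%) and 0 rose, beside 11.1% of all tested genes that fell and 1.92% that rose. They were Ms4a1, H2-Aa, Adgre1, Csf1r, Ctss and Lgals3. The log2 folds were negative for 32 of 33, the exception being Cd22, and their median was -1.30, against -0.24 over all genes. That of Cd79a had its sign fixed by the filter, which it passed through the control arrays alone. By class, the median was -1.29 for 8 B cell markers, -1.25 for 5 MHC class II genes and -1.59 for 20 myeloid markers. With each array centred on its median signal, the median was -1.09 for the markers and -0.01 for all genes. The CD4 T cell genes were lower too: 6 of 15 fell, among them Cd3g by 3.51 log2 units, and the median of all 15 was -1.12. The part that other cells had in the markers' decrease was not tested. None of the 6 calls held without control replicate 1 or 2 or dorsomorphin replicate 1 or 2. Each such fit leaves 1 array in a group, so this says little about the markers as such. The markers' median was then -1.44, -1.22, -1.50 and -1.11, against -0.22, -0.32, -0.29 and -0.16 over all genes.

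**Figure D3:**
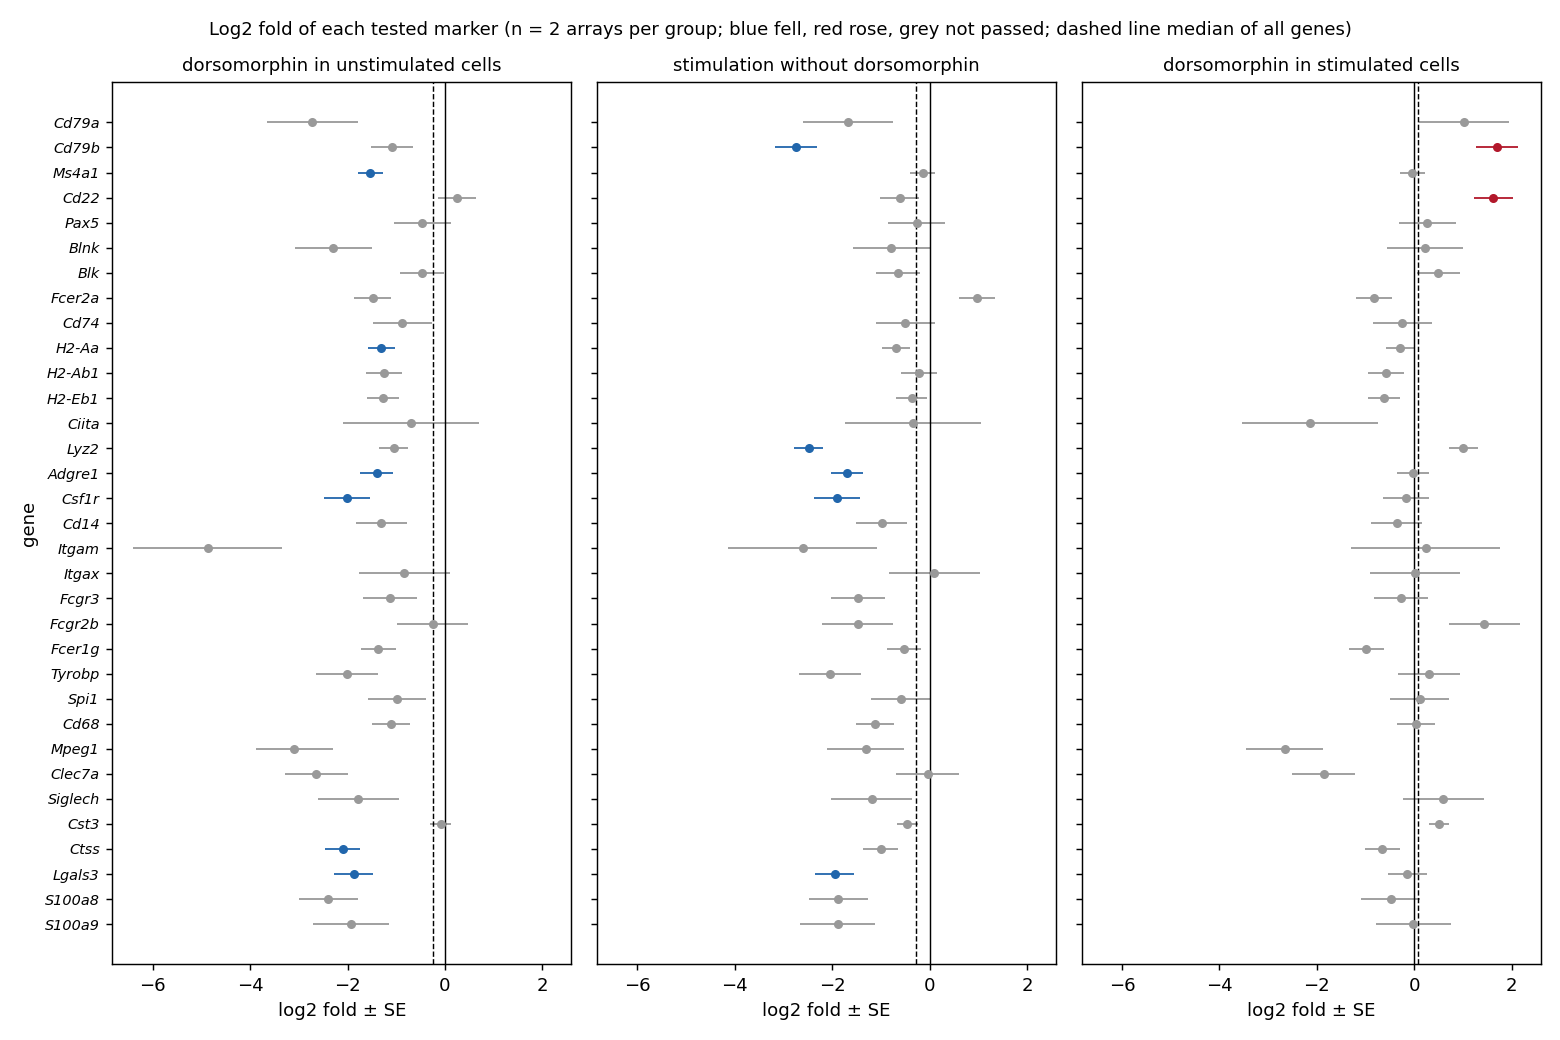
Log2 fold ± SE (horizontal axis) of the 33 tested markers in 3 comparisons, n = 2 arrays per group; blue points fell, red rose and grey did not pass, and the dashed line is the median of all genes. In the left panel 32 of 33 points lie below 0, in the middle panel 31 and in the right panel 18.

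In the comparison of stimulation with control, 5 of 33 markers fell (15.2%) and 0 rose, beside 14.4% of all tested genes that fell and 8.98% that rose, so the share that fell was near the background. They were Cd79b, Lyz2, Adgre1, Csf1r and Lgals3. Log2 folds were negative for 31 of 33, with a median of -0.99 against -0.27 over all genes, or -0.63 against 0.10 with median centring. The sign for Cd79a was again fixed by the filter. By class the medians were -1.39 for myeloid markers, -0.63 for B cell markers and -0.37 for MHC class II genes. Of the 5 class II genes 0 passed and 0 had an unadjusted p under 0.05 by limma, beside 5364 of 13983 genes tested. This comparison shares its control arrays with the preceding one, so the decreases are not separate. None of the 5 calls held without either control array, and only that of Lyz2 held without stimulated replicate 2. Without control replicate 1 or 2 the markers' median was -1.01 and -0.80, against -0.24 and -0.36 over all genes. Without stimulated replicate 1 or 2 it was -1.38 and -0.39, against -0.37 and -0.14.

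Dorsomorphin in stimulated cells gave no common direction. Cd79b and Cd22 rose, 2 of 33 (6.06%) beside 9.71% of all genes, and 0 fell beside 12.4%. The absence of falls depended on the setting: 2 fell (Mpeg1 and Clec7a) with median centring or limma's trend and robust options, 3 (also Fcer1g) with cyclic loess or a 60th percentile filter, and 1 (Mpeg1) with log2(signal + 16). Log2 folds were positive for 15 and negative for 18, with a median of -0.03 against 0.07 over all genes. The MHC class II genes were negative in 5 of 5 with a median of -0.57, and B cell markers positive in 6 of 8 with a median of 0.38. Over all 33, the median was -0.28 with median centring, where that of all genes was -0.19. Leaving out stimulated replicate 2, either control array or either array of unstimulated cells with dorsomorphin left 0 markers. Without replicate 1 of both treatments neither call passed and Ciita fell instead, without replicate 2 only Cd79b passed, and without stimulated replicate 1 both passed and Fcgr2b rose too.

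Against control, the cells with both treatments had 4 of 33 markers down (12.1%) and 0 up, beside 6.31% of all genes that fell and 0.915% that rose. All 4 were myeloid markers, namely Lyz2, Adgre1, Mpeg1 and Lgals3. The median log2 fold was -1.69 for myeloid, -0.98 for MHC class II and -0.17 for B cell markers, against -0.14 over all genes. Leaving out any 1 of the 8 arrays left 0 of these 4 past the threshold, and Ctss fell when either stimulated array was left out. Stimulation in the presence of dorsomorphin changed 0 of 33 markers, and 0% of all genes, by limma. At an unadjusted p under 0.05 by limma there were 2 of 33 markers, Ms4a1 and Fcer2a, beside 539 of 13983 genes. Itgam and Cd79a lay below the floor on all 4 arrays compared, and the other log2 folds ran from -1.78 (Ciita, through its 1 very low array) to 1.73 (Blnk).

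The difference between the stimulation effects with and without dorsomorphin was tested as an interaction. No marker passed by limma, beside 0.0858% of all genes. The interaction term was positive for 32 of 33 markers, beside 8700 of all 13983 genes. Ciita was the exception, at -1.44 ± 1.98. The median log2 value was 1.14 for the markers against 0.35 over all genes, or 0.67 against -0.14 with median centring. The term includes the control arrays, so it is not separate from the comparisons with control. The values for Lyz2 (2.06 ± 0.42, adjusted p = 0.0727) and Cd79b (2.80 ± 0.61, adjusted p = 0.0781) were the nearest to the threshold. They passed it with a constant of 16 added to the signal, with a 60th percentile filter and with limma's trend and robust options. Over all alternatives run, the limma adjusted p for the interaction ranged from 0.0108 to 0.235 for Lyz2 and from 0.0256 to 0.243 for Cd79b.

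Summed over each class on the linear scale, the signal of the 20 myeloid markers was 21024 and 30574 in control cells, 9527 and 8941 with dorsomorphin, 13046 and 9107 after stimulation, and 9875 and 10709 with both. The control mean was 2.79 times the dorsomorphin mean and 2.33 times the stimulated mean. Without Cst3, Ctss and Lgals3, a choice made after seeing the data, control arrays summed to 8340 and 15614 and the 6 treated arrays to 3295 to 4208. The 5 MHC class II genes summed to 4471 and 3989 in control, 2177 and 1591 with dorsomorphin, 4132 and 2277 after stimulation, and 2470 and 2074 with both. Stimulated replicate 1 thus lay within the range of control and replicate 2 near the dorsomorphin arrays. The 9 B cell markers summed to 677 and 824 in control, 396 and 367 with dorsomorphin, 611 and 369 after stimulation, and 646 and 661 with both. For comparison, the 15 CD4 T cell genes summed to a control mean 2.27 times that with dorsomorphin, 1.33 times that after stimulation and 1.84 times that with both.

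**Figure D4:**
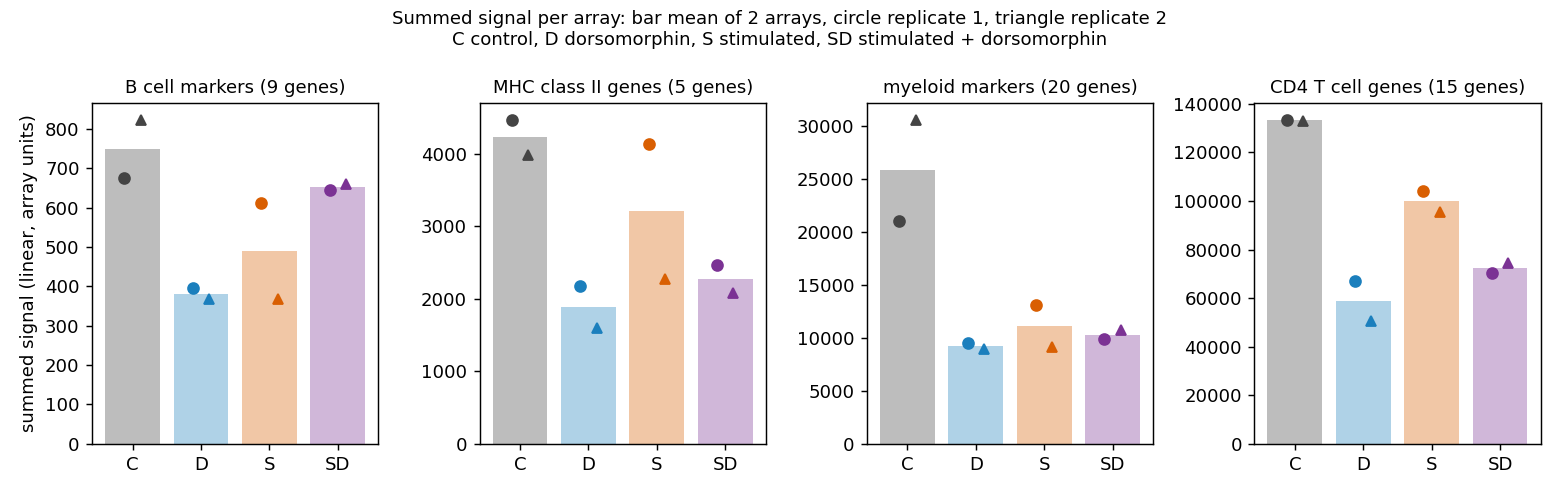
Summed linear signal per array (vertical axes from 0, in array units) of the 3 marker classes and of 15 CD4 T cell genes in the 4 groups; bars are means of 2 arrays. Myeloid sums are 21024 and 30574 in control and at most 13046 elsewhere, while the stimulated arrays of the B cell and MHC class II panels lie far apart.

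The replicates of stimulated cells differed in marker level. Replicate 2 was below replicate 1 for 29 of 33 markers (87.9%), against 58.2% of all tested genes, with a median difference of -0.85 log2 units against -0.14. The gaps in this direction were widest for Itgam (4.86), Itgax (2.96), Cd79a (2.47), Fcgr2b (2.14) and Siglech (1.90). In the other groups replicate 2 was lower for 11 markers (control, 33.3%), 22 (dorsomorphin, 66.7%) and 20 (both treatments, 60.6%) of 33. Over all genes these shares were 52.3%, 58.4% and 56.2%. The markers' medians were 0.18, -0.17 and -0.40, against -0.02, -0.12 and -0.09 over all genes. This spread within a group limits every comparison that uses the stimulated arrays.

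Further genes were counted from lists of 114 genes, of which 101 had a probe set of single symbol and 99 were tested. The lists held other genes of the same cells, and also NK, CD8, red cell, platelet and CD4 T cell genes. With dorsomorphin in unstimulated cells, 7 of 38 other myeloid and dendritic cell genes fell (18.4%) and 0 rose, with a median log2 fold of -1.29, beside 11.1% and 1.92% of all genes and a median of -0.24. Among them were Cybb, the catalytic subunit gene of the phagocyte oxidase, which fell by 2.30, and the cytokine receptor gene Csf2rb, which fell by 2.40 log2 units. Flt3, a receptor of dendritic cell precursors, fell too, and as both dorsomorphin arrays were below the floor, control was at least 1.97-fold higher. Only the control arrays of Flt3 lay above the floor, so it was tested through the group where it was high. Of 19 other B cell genes 3 fell (15.8%) in this comparison (Plcg2, Cxcr5 and Swap70) and 0 rose, with a median of -1.23, and of 16 other antigen presentation genes 3 fell (18.8%), namely Rfx5, Rfxank and Ifi30. Of 11 NK, CD8, red cell and platelet genes 2 fell (18.2%), the NK receptor gene Klrd1 by 2.12 and the granzyme gene Gzma by 1.29.

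With stimulation, 3 of 38 other myeloid genes fell (7.89%) and 2 rose (5.26%), both below the 14.4% and 8.98% of all genes. C1qa, a complement gene of macrophages, fell below the floor on both stimulated arrays, so control was at least 2.02-fold higher (adjusted p = 0.00950), and Irf8 and Bst2, which activated lymphocytes also make, rose by 4.02 and 2.69. Of 19 other B cell genes, Pou2af1, a coactivator also induced in activated T cells, rose by 3.32 and Cxcr5 fell by 1.27. Of 16 antigen presentation genes 5 fell (31.2%) and 1 rose (6.25%), and Klrd1 fell by 4.41. Dorsomorphin in stimulated cells lowered 6 of 38 other myeloid genes (15.8%, beside 12.4% of all genes), among them Bst2 by 3.19, Il1b by 2.31 and Cybb by 2.27 (all fell), and 0 rose. In that comparison 0 of 19 other B cell genes rose and 3 fell (15.8%), among them Pou2af1 by 4.05 and Cd40 by 2.57 log2 units. Of 16 other antigen presentation genes 1 fell (6.25%) and 4 rose (25%, beside 9.71% of all genes). Ctsb and Lgmn, which encode lysosomal proteases, rose by 1.53 and 1.44.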

How the data were processed

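The authors deposited linear intensity values for 45101 probe sets on each of 8 arrays. The submitters' processing notes name RMA and affy, without versions, yet the values lack the form of RMA output: their mean after trimming 2% at each end was 500 on every array. Their log2 was analysed without further normalization. Of the markers, 25 had 1 probe set and 9 had several. Genes were tested where the brightest probe set lay above the working floor (40th percentile) on at least 2 arrays (13983 of 18193). One model over 8 arrays was fitted with limma 3.58.1 in R 4.3.3 (no trend, not robust, 4 residual and 1.90 prior degrees of freedom), with 6 contrasts, two-sided p-values, Benjamini-Hochberg adjustment over all tested genes and a threshold of 0.05, and was tested on simulated data. With both arrays of a group below the floor, the fold is a bound against the floor. Array number limits the precision.

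The markers and lists were chosen with earlier results of these data known. All 34 markers were named, with values by array for those past the threshold and for 12 defining markers; from each further list, at most 3 genes per comparison, those past the threshold with the smallest p. Rfxap was named after its values were seen. Alternatives changed the probe set rule, scaling, filter, low values, variance model, arrays and replicate block.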

Additional observations from a re-analysis of the deposited data

How the results depend on the processing

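The number of markers past the threshold changed with most settings. For the 17 calls, 0 of 286 recomputed log2 folds changed sign, 145 passed and 141 did not. Calls against the main direction appeared for dorsomorphin in stimulated cells. For dorsomorphin in unstimulated cells (6), it was 13 with a 60th percentile filter, 11 with log2(signal + 16), 14 with limma's trend and robust options, and 2 with either averaged probe sets or no filter. For stimulation (5), it was 9 with the stricter filter, 8 with trend and robust fit and 3 with only the 4 arrays compared. For dorsomorphin in stimulated cells (2), it was 5 with the stricter filter or cyclic loess, 4 with log2(signal + 16) or trend and robust fit, 1 with mean probe sets, and 0 with no filter or only the 4 arrays. For both treatments (4), it was 9 with the stricter filter, 8 with log2(signal + 16), 10 with trend and robust fit, 1 with mean probe sets, and 0 with no filter or only the 4 arrays. The interaction (0) gave 2, 2 and 4 under the first 3 of these settings, and stimulation with dorsomorphin stayed at 0 under every setting run. The number of all genes past the threshold moved as well. For dorsomorphin in unstimulated cells 1825 of 13983 became 2968 of 9640 with the stricter filter and 2503 of 14007 with log2(signal + 16). It became 3103 of 13983 with trend and robust fit, 1058 of 12629 with averaged probe sets and 927 of 18193 with no filter. For stimulation 3269 of 13983 became 4370 of 9640, 4408 of 13983 and 1668 of 13983 under its 3 settings above. The causes were not tested.

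Leaving out 1 array gave 0 to 9 markers for stimulation, 0 to 5 for dorsomorphin in unstimulated cells, 0 to 3 in stimulated cells, 0 to 1 for both treatments, 0 to 1 for the interaction and 0 for stimulation with dorsomorphin. Each of these fits left 1 array in a group, so the counts say little about the markers as such. Same-numbered arrays deviated together weakly (correlations of 0.07 to 0.18 between groups, all positive), and the labels do not say what a number marks, so it was not taken as pairing. With replicate number as a block, 11 markers passed for dorsomorphin in unstimulated cells and 8 for stimulation, 3 for dorsomorphin in stimulated cells (1 rose and 2 fell), 6 for both treatments, and 0 for the interaction and for stimulation with dorsomorphin. Of all 13983 genes, 2317 passed with the block for dorsomorphin in unstimulated cells and 3997 for stimulation. The block ended 4 of the 17 calls: Adgre1 with dorsomorphin in unstimulated cells (limma adjusted p = 0.0588), Cd22 with dorsomorphin in stimulated cells (0.0506), and Lyz2 (0.0527) and Adgre1 (0.0519) with both treatments. Of 30 recomputed sums 4 moved beyond the spread of the arrays. With median centring the number of all genes called shifted too. For stimulation 3269 became 2063, while the markers called went from 5 to 4. For dorsomorphin in unstimulated cells 1825 became 915, while the markers went from 6 to 4. No array gave detection calls, so dim genes such as Itgam and Cd79a are bounds.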
